A study of Mus musculus with 36 samples.

Results

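The mRNAs of the cytosolic ribosomal proteins were followed through cortex, hypothalamus and hippocampus of mice in which the miRNA-processing enzyme Dicer had been deleted from neurons in adult life. The group was taken from the array annotation: a gene was a member if at least 1 of its probe sets was annotated to that gene alone and its symbol started with Rpl or Rps, with the Rps6k kinases left out, since these modify a ribosomal protein and are not part of the ribosome. This gave 51 genes with 107 probe sets, out of 18194 genes with a probe set of their own. Of the 51, 22 encode proteins of the large subunit, 21 proteins of the small subunit, and 8 are relatives or other symbols that the rule also takes in, such as Rpl22l1, Rpl7l1, Rps27l and Rps19bp1. The probe set with the highest mean in a tissue stood for a gene there.

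The animals were Camk2a-CreERT2 (Cre+);Dicer lox/lox mice on a C57BL/6J background. At 8 weeks of age they received injections over 5 days of tamoxifen, 10 mg in all (cKO mice), or of vehicle (control mice, which carry the same Cre transgene and floxed alleles), and tissue was taken 4 or 8 weeks later. The 3 tissues, 2 treatments and 2 times made 12 groups of 3 animals, 36 arrays in all, from 12 cKO and 13 control animals named in the labels; 11 animals gave both cortex and hypothalamus, and the hippocampus came from other mice. Tamoxifen itself was given to cKO mice only, so its effect and that of the deletion cannot be told apart on these arrays. The Cre enzyme is driven by the promoter of Camk2a, a kinase of forebrain neurons, so that other neurons and glia of these bulk tissues keep Dicer. All values are log2 array intensities that the authors normalised within a tissue, and a difference of group means on this scale is a log2 fold change.

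A ribosome joins ribosomal RNA with a set of proteins, most of them in a single copy, which are made in matched amounts and assembled with the RNA in the nucleolus. Most ribosomal protein mRNAs start with an uninterrupted stretch of pyrimidines, the 5′ terminal oligopyrimidine (TOP) motif, through which the mTOR pathway sets how strongly they are translated, and the corresponding genes are among the most highly transcribed in neurons and glia alike. Some members also act outside the ribosome. Rpl11 binds Mdm2, the inhibitor of p53, and Rps6 is the subunit protein phosphorylated by the S6 kinases. Several members are used as reference genes in PCR, among them Rplp0, Rpl13a and Rps18.

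The start sites were compared with those of all genes for features that played no part in choosing the members. Sequences from RefSeq (build GRCm38.p6) matched 44 of the 51 members by Entrez gene identifier. A run of 8 or more pyrimidines reached within 10 bases of an annotated start in 18 of 38 genes of the 2 subunits (47.4%) and in 2 of 6 relatives, against 15.8% of all 27025 genes. The start base itself was C or T in 52.6% of these 38, against 33.2% of all genes. In the window from 250 bases before to 50 bases after the start, on either strand, CCGGAAG, the core of an Ets site, was found for 19 of these 38 (50%), as against 9.93% genome-wide, while TATAAA was found for 13.2% and 15.7%. The genes printed here are those on which the comparisons between groups and tissues turn. Each line holds the 30 bases around the start on the gene's strand, with the start at the 16th base, and capitals mark the pyrimidine run.
Rpl14 (chr9:120571502-120571531, plus strand): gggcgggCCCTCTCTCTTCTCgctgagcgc
Rps6 (chr4:86857353-86857382, minus strand): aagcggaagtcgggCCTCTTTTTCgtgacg
Rpl27a (chr7:109519180-109519209, plus strand): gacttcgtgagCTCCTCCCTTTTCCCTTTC
Rps9 (chr7:3704026-3704055, plus strand): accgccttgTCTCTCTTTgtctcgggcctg
Rpl22l1 (chr3:28805493-28805522, plus strand): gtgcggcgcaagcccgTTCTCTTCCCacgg
Rpl7l1 (chr17:46782642-46782671, minus strand): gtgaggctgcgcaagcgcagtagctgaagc
The runs of Rpl14 and Rps6 span the start, that of Rpl27a goes on past the printed bases for 20 pyrimidines in all, and Rpl7l1, a nucleolar relative of Rpl7, has none in this window. The matches are descriptions of these letters, and the arrays do not measure translation, which is the step the TOP motif controls.

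Whole-series facts that touch the members are few. Dicer1 itself has 2 probe sets. For the brighter, which entered the fits, differences between cKO and control lay between -0.09 and 0.10 in the 6 tissue and time comparisons (lowest adjusted p 0.435 in limma). The other differed in cortex by 0.45 at 4 weeks and 0.33 at 8 weeks, with SDs of 0.401 and 0.320 among controls, and by -0.09 to 0.07 elsewhere. The position of its probes relative to the excised exon 24 was not known here, so this neither checks nor contradicts the labels. By rank among all probe sets, 8 of 10 hypothalamic peptide genes stood above the 90th percentile in hypothalamus, against 1 in cortex and 0 in hippocampus. The arrays labelled hippocampus had 1 of 10 hippocampal genes above that percentile, as had cortex, while hypothalamus had 2. Of 12 genes of excitatory forebrain neurons, 2 stood above it on the hippocampus arrays, 4 in cortex and 1 in hypothalamus. Single genes of these lists differed. On the hippocampus arrays Prox1 of dentate granule cells ranked at percentile 33.8 and Zbtb20, of the same list, at 91.3. Slc17a7, the glutamate transporter of excitatory forebrain neurons, ranked at 28.2 there against 93.0 in cortex, and Camk2a at 95.8 against 99.6. In cortex, control 4 weeks replicate 3 stood apart from its group, at a median distance of 0.236 per gene from its other animals. The next most distant were cKO 8 weeks replicate 2 at 0.156 and cKO 4 weeks replicate 3 at 0.140, the latter close to the other 9 arrays, which lay between 0.076 and 0.136. On the first principal component, control 4 weeks replicate 3 (22.6) lay with the cKO 4-week arrays (16.1 to 21.6) and not with its own group (-16.2 and -15.0). Replicate 2 of cKO 8 weeks was at 11.9. Actin's 3′ over 5′ signal (log2), which grows as RNA degrades, was lowest on arrays above 0 on this component. It was 1.12, 1.12 and 1.14 in cKO 4-week mice, 1.07 in control replicate 3 and 1.18 in that 8-week mouse. The other 4-week controls had 1.30 and 1.33, the other 8-week arrays 1.28 to 1.48. For Gapdh, control replicate 3 (0.20) lay above the other 4-week arrays (-0.02 to 0.11). The part of RNA quality was not tested.

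Of the 51 members, 47 passed the filter on low values in each tissue, which ranked genes by the third-highest of a tissue's 12 values. The remaining 4 were the tissue-restricted relatives Rpl39l and Rpl3l, the pseudogene Rps15a-ps6, and Rps16. The last is a regular subunit gene whose only single-gene probe set was dim. A further 110 probe sets name a ribosomal protein gene together with a pseudogene or another gene and were left out by the rule, so that Rpl3, Rpl5, Rpl10, Rplp1 and Rps27a are not analysed here. Most of the members tested were bright and steady. In cortex 35 of 47, and in hypothalamus and hippocampus 36, lay in the top decile of level. The median SD within groups was 0.0875 for members and 0.148 for all genes in cortex, 0.0479 and 0.103 in hypothalamus, and 0.0664 and 0.116 in hippocampus. The steadiest were Rps3a1 in cortex (SD 0.0183), Rps15 in hypothalamus (0.0228) and Rps24 in hippocampus (0.0255). The least steady were Rpl22l1 in cortex (0.379), Rpl37 in hypothalamus (0.186) and Rpl27a in hippocampus (0.204).

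**Figure D1:**
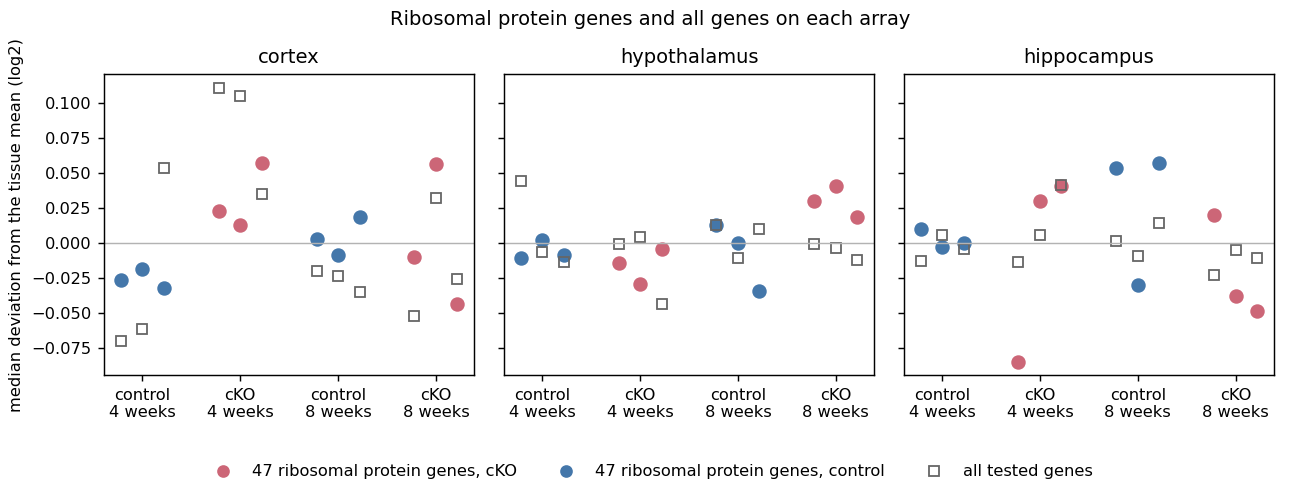
Median over the 47 tested members of the deviation from each gene's mean in the tissue (y axis, log2), 1 filled point per array, by tissue and group, with the same median over all genes as open squares. The cKO 8-week arrays of the hypothalamus (0.02 to 0.04) and the cKO 4-week replicate 1 of the hippocampus (-0.08) show how small these shifts are beside changes of single genes.

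In the cortex 4 weeks after tamoxifen, 3 of the 47 ribosomal protein genes were called at a false discovery rate of 15% (6.38%), where 9.08% of all genes tested were, 8.06% higher and 1.02% lower in cKO mice. The large-subunit gene Rpl14 and the small-subunit gene Rps6 were higher in cKO mice, and the large-subunit gene Rpl27a was lower. The median difference of the members was 0.06 (0.03 without cKO replicate 3), below the 0.12 of all genes, and 31 of 47 lay above 0, where 75% of all genes did. The differences of all genes were thus not centred on 0 in this comparison. After each array was centred on its median, the members' median was -0.08 and none was called. By subunit, 16 of 20 small-subunit genes lay above 0 with a median of 0.07, and 13 of 22 large-subunit genes with a median of 0.03. Since RNA came from whole tissue, fewer cells of a type and less RNA per cell cannot be told apart in any of these values.

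**Figure D2:**
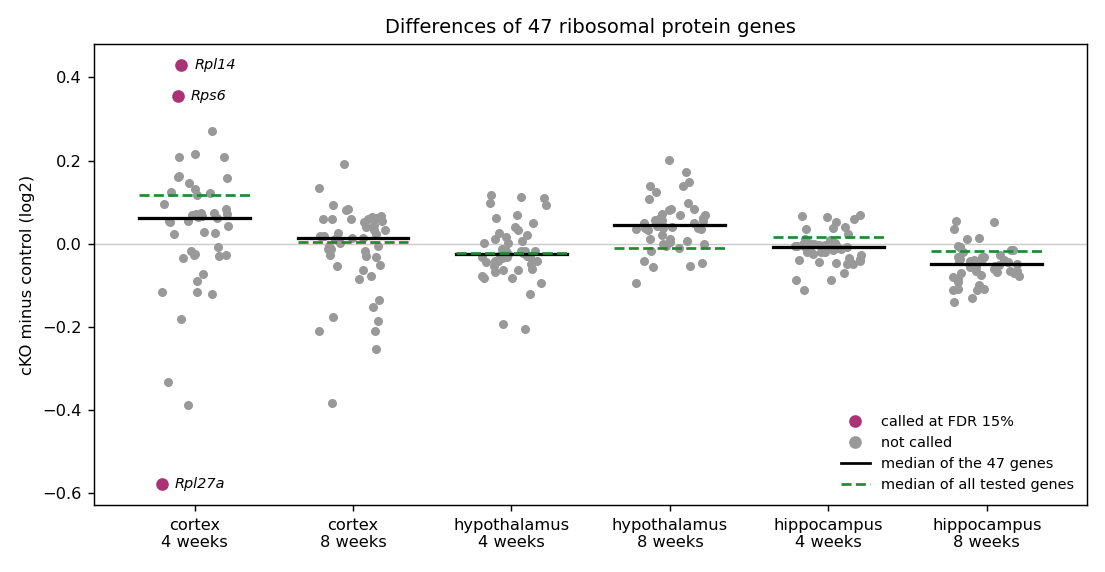
Difference between cKO and control means (y axis, log2) of each tested member by tissue and time (x axis), with called genes named and lines at the medians of the members (solid) and of all genes (dashed). Most points lie within 0.2 of 0, and the called genes, Rpl14 at 0.43, Rps6 at 0.35 and Rpl27a at -0.58, are all in cortex at 4 weeks.

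Rpl14, a protein on the surface of the large subunit, had log2 levels of 6.55, 6.32 and 6.30 in the cKO cortices and 5.83, 5.93 and 6.13 in the controls at 4 weeks. The groups did not overlap, and the difference was 0.43 (SE 0.11, n = 3 per group, adjusted p = 0.0934 in limma), a fold of 1.35. Rps6 had levels of 7.79, 7.89 and 7.87 in cKO mice and of 7.37, 7.53 and 7.59 in controls. Again every cKO value lay above every control value, with a difference of 0.35 (SE 0.10, adjusted p = 0.117) and a fold of 1.28. Rpl27a, another protein of the large subunit, had levels of 9.12, 8.99 and 9.18 in cKO mice and of 9.84, 10.04 and 9.15 in controls. Its difference was -0.58 (SE 0.19, adjusted p = 0.141), and the groups overlapped through control replicate 3, which lay with the cKO mice. Rpl14 and Rps6 kept a difference above 0 with centred arrays but were not called (0.29, adjusted p = 0.208, and 0.22, adjusted p = 0.297), nor was Rpl27a (-0.72, adjusted p = 0.202).

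At an unadjusted p under 0.05 there were 6 members, where 21.8% of all genes passed. Beside the called genes these were Rps9 (0.22, adjusted p = 0.175), which lines the mRNA entry channel of the small subunit, Rps18 (0.21, adjusted p = 0.219) of its head, and Rpl7l1 (0.27, adjusted p = 0.18). Rps9 had levels of 11.53, 11.53 and 11.58 in cKO mice and 11.26, 11.34 and 11.38 in controls. Its groups did not overlap, as for 12 members with higher cKO values, where 17.9% of all genes had such groups; 9 of the 12 belong to the small subunit. The reverse, each cKO value below each control value, held for 1 member, Rpl39 of the peptide exit tunnel (-0.18, adjusted p = 0.368), where 2.16% of all genes had it. Among the members known as PCR reference genes or for roles outside the ribosome, Rps6 was thus called and Rps18 lay at 0.21, while Rplp0 of the stalk (-0.03), Rpl13a (-0.03), Rpl11 (0.08) and the laminin receptor Rpsa (0.13) were not called. Nor were Rplp2 (0.04) and Rpl41 (0.05).

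**Figure D3:**
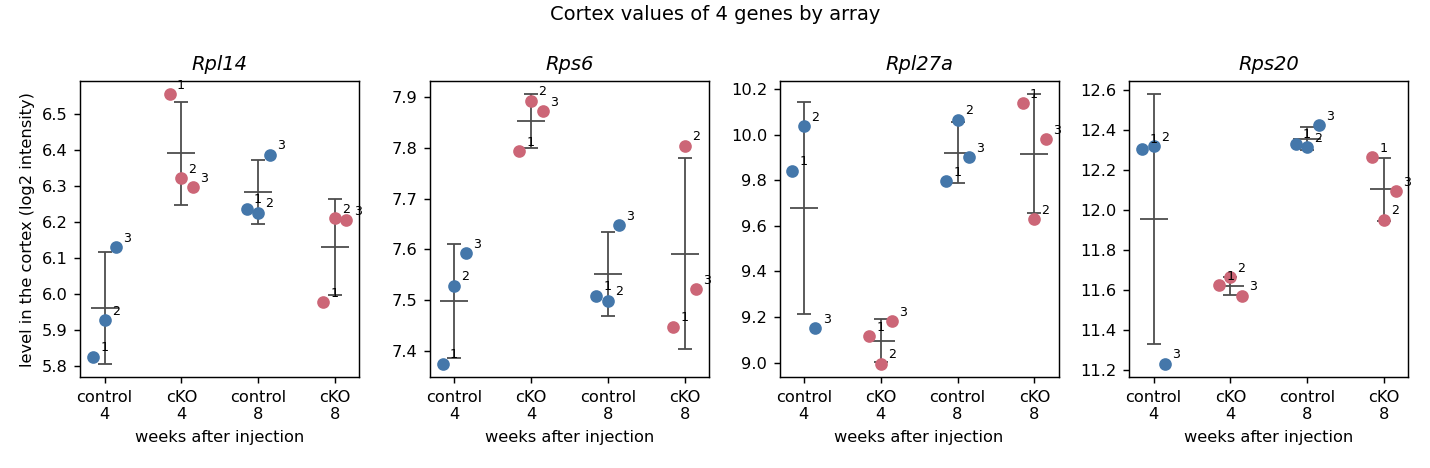
Log2 level of Rpl14, Rps6, Rpl27a and Rps20 in each of the 12 cortex arrays (y axis, points numbered by replicate) by group and weeks after injection, with the group mean and SD as bars. In the 4-week controls of Rpl27a (9.84, 10.04, 9.15) and Rps20 (12.31, 12.32, 11.23), replicate 3 lies apart from the other animals.

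In several members control replicate 3 lay apart from the other 4-week controls. Rps20, a small-subunit protein, had levels of 12.31, 12.32 and 11.23 in controls and of 11.63, 11.67 and 11.57 in cKO mice. Rpl22l1, the paralog of Rpl22, had 11.29, 11.27 and 10.04 in controls and 10.66, 10.40 and 10.39 in cKO mice. For both, control replicates 1 and 2 lay above all cKO mice and replicate 3 below them, so that the groups overlapped and neither difference was called (-0.33, adjusted p = 0.376, and -0.39, adjusted p = 0.373). Rpl35 had 11.72, 11.63 and 11.06 in controls against 11.39, 11.46 and 11.21 in cKO mice, and Rps27l, the paralog of Rps27 and a target of p53, had 9.58, 9.36 and 9.07 against 9.18, 9.27 and 9.20. Without control replicate 3, 18 of 47 members were called, 12 with higher and 6 with lower levels in cKO mice, and so were 44.1% of all genes. Without any 1 of control replicates 1 and 2 or of cKO replicates 1 and 2, the count was 0, and without control 8 weeks replicate 1 or 2 it was 1. The shares of all genes in these last refits are not given here, so the counts do not describe the members in particular.

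When the 3 most distant cortex arrays were left out together, a step chosen after seeing the data, 19 of 47 members were called, where 56.4% of all genes were. The 12 that were then higher in cKO mice were led by Rpl14 (0.56), Rpl7l1 (0.43), the Rps19-binding protein gene Rps19bp1 (0.39) and Rps6 (0.39). The others were the large-subunit genes Rpl8, Rpl7a and Rpl19 (0.16 to 0.23) and the small-subunit genes Rps27, Rpsa, Rps9, Rps15 and Rps14 (0.15 to 0.23). The 7 that were lower were Rpl27a (-0.88), Rpl22l1 (-0.76), Rps20 (-0.67), Rpl35 (-0.26), Rps27l (-0.24), Rps24 (-0.18) and Rps28 (-0.18). The members thus moved in both directions within each subunit on the 9 remaining arrays.

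Correlations between members across arrays were of both signs. Over the 12 cortex arrays, the 1081 pairs of members had a median correlation of 0.13 between deviations from their group means. Of these pairs 350 lay above 0.5 and 200 below -0.5. Differences between groups do not enter these values. Those most like Rps20 were Rpl22l1 (r = 0.96), Rpl13a (0.93), Rpl35 (0.93), Rps7 (0.90) and Rpl27a (0.88), and those most opposed were Rpsa (-0.93), Rpl7a (-0.89) and Rpl41 (-0.89). Without the 3 most distant arrays, the value with Rps20 was 0.93 for Rpl13a and -0.75 for Rpsa, but 0.01 for Rpl22l1, 0.14 for Rpl35 and 0.42 for Rpl41. In hippocampus the median correlation was 0.51, with 16 pairs below -0.5, and in hypothalamus 0.08. The arrays of a tissue share their normalisation, and these correlations are descriptions of 12 arrays.

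**Figure D4:**
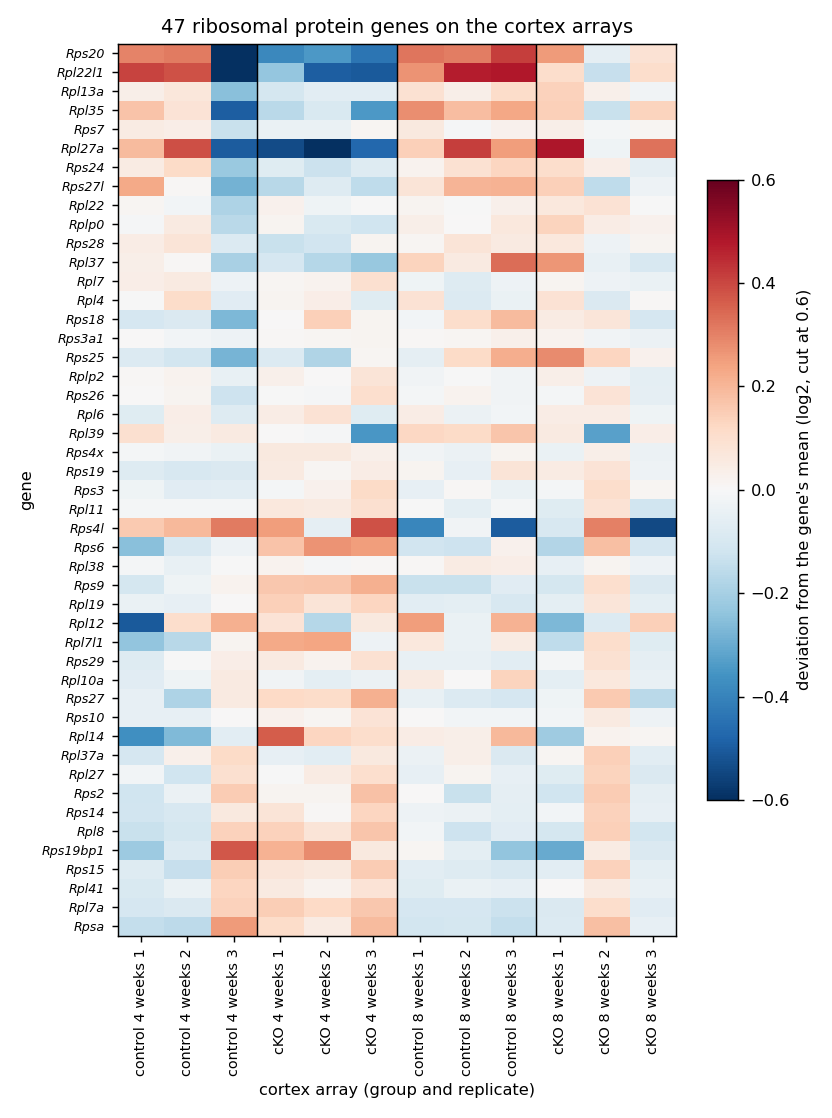
Deviation of each tested member (1 line each, ordered by likeness to Rps20) from its cortex mean in each of the 12 cortex arrays (x axis), on a log2 colour scale. Likeness is the correlation of deviations from the group means. In control 4 weeks replicate 3, Rps20 and Rpl22l1 are low as in the cKO 4-week arrays, unlike in its 2 group mates. Not all members follow. The level of Rps18 is 11.55 there, below the group mates (11.72 and 11.73), whereas the cKO 4-week arrays lie above them (11.82 to 11.96).

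For the called genes, other probe sets gave values of their own. Rpl14 has 1 probe set of its own, which was dim in cortex (mean level 6.19). The 5 that it shares with its pseudogene Rpl14-ps1 were brighter (9.98 to 10.96) and differed between cKO and control at 4 weeks by -0.04 to 0.14. For Rps6 the probe set used had a mean level of 7.62, and a second, dimmer probe set of its own had a difference of 0.05. The 8 kept probe sets that Rps6 shares with Rps6-ps4, at mean levels of 6.35 to 13.12, ranged from -0.72 to 0.09. None of them was called, and 1 had an unadjusted p under 0.05 in limma. Rpl27a has 2 probe sets of its own, and values of the one not used are not given here. The probe set it shares differed by -0.04. Rpl7l1, in contrast, had 3 probe sets at 0.27, 0.24 and 0.23, and the second probe set of Rps20 was at -0.47, beside -0.33 for the one used. The probe sets used for Rpl14 and Rps6 both belong to the 18 member probe sets with a mean level below 8. Of these 18, 13 lay above 0 (median 0.17), whereas among the 54 with a mean of 11 or more 33 did (median 0.03). Where each probe set lies along its transcript was not known here, and 40 of the 107 probe sets carry the suffix for probes that can also bind other transcripts.

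Some markers of other cells differed in the same comparison, where 8.06% of all genes were called higher and 1.02% lower. Of 18 genes of the leptomeninges, the membranes that cover the cortex, 12 were higher in cKO mice (median 0.71), and their median deviation was 0.45, 0.42 and 0.33 in cKO mice and -0.49, -0.39 and 0.05 in controls, with control replicate 3 the highest of its group. Of 9 hippocampal genes tested 5 were called higher, of 9 hypothalamic peptides 3, and of 21 microglia, 15 astrocyte and 14 oligodendrocyte genes 1 each. For microglia, astrocytes and oligodendrocytes this was below the share of all genes. None of 13 endothelial and 14 neuronal genes was called, and of 12 genes of excitatory forebrain neurons 1, Tbr1, was lower. Among 32 nuclear-retained transcripts Neat1 was higher (0.47) and Malat1 lower (-2.27). The part of tissue composition in the values of Rpl14, Rps6 and Rpl27a was not tested.

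Genes of the wider translation machinery had counts of the same order in the cortex at 4 weeks, all in the higher direction. Called were 3 of 76 mitochondrial ribosomal protein genes (Mrps27 at 0.37, Mrps5 at 0.33, Mrpl32 at 0.25; list median 0.14) and 1 of 19 elongation factors and other TOP mRNAs (Btf3, a nascent chain-binding protein, at 0.31). Of 35 initiation factor genes 5 were called, among them Eif4e2, a cap-binding repressor, at 0.50, the eIF2B subunit Eif2b3 at 0.34 and the eIF2α kinase Eif2ak3 at 0.28. Of 61 ribosome biogenesis genes 5 were called, among them the RNA helicases Ddx52 (0.50) and Ddx10 (0.35) and nucleostemin, Gnl3 (0.31). Of 24 genes of mTOR and S6 kinase signalling, Rps6ka5 (0.44) and Rps6ka6 (0.54) were called. Beside the 8.06% of all genes called higher, the shares of these lists ran from 3.95% to 14.3%. Fau, a ribosomal protein gene of the small subunit under another symbol, differed by 0.17 (adjusted p = 0.321).

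At 8 weeks no member was called in cortex, where 0% of all genes were, and the count at an unadjusted p under 0.05 was 0 of 47 against 4.75% of all genes. The methods' t-test passed 1 member at that unadjusted threshold. The median difference was 0.01 for members and 0.00 for all genes, and 26 of 47 lay above 0, where 51.4% of all genes did. Rpl14 had levels of 5.98, 6.21 and 6.20 in cKO mice and 6.24, 6.23 and 6.39 in controls, a difference of -0.15 (SE 0.11, adjusted p = 0.933). Every cKO value was below every control value there, the reverse of 4 weeks. Non-overlapping groups with lower cKO values were found for 5 members (Rpl14, Rpl22l1, Rpl35, Rpl39 and Rps20; 7.38% of all genes) and with higher ones for 2 (Rpl7a and Rpsa; 7.09%). Rps6 differed by 0.04 and Rpl27a by -0.01.

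The change of the cKO effect with time was tested directly. For Rpl14 the difference at 8 weeks minus that at 4 weeks was -0.58 (SE 0.16, adjusted p = 0.466), for Rps6 -0.31 (adjusted p = 0.507) and for Rpl27a 0.57 (adjusted p = 0.511). None of 47 was called, and 0.0068% of all genes were, while 3 members had an unadjusted p under 0.05, where 9.88% of all genes did. Within cKO mice, Rpl27a was higher at 8 than at 4 weeks (0.82, SE 0.19, adjusted p = 0.14), the only member called in that comparison, where 1.2% of all genes were called and 0.129% were higher. This comparison shares its 4-week cKO arrays with that against controls at 4 weeks. Without the 3 most distant arrays 17 of 47 were called there, where 49.2% of all genes were. In control mice no member was called between the times (background 0%), and 4 had an unadjusted p under 0.05, where 5.28% of all genes did. The difference of Rpl14 between the times was 0.32 in controls (adjusted p = 0.863) and -0.26 in cKO mice (adjusted p = 0.223).

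In the hypothalamus no member was called at either time, as for 0% of all genes. At 4 weeks 17 of 47 lay above 0 (all genes 38.6%), with a median of -0.03, and 2 had an unadjusted p under 0.05, where 2.7% of all genes did. The median was 0.0029 with centred arrays, -0.0070 without cKO replicate 2 and -0.0092 without control replicate 2. Rpl14 had levels of 7.38, 7.31 and 7.28 in cKO mice and 7.64, 7.42 and 7.49 in controls. Every cKO value lay below the controls, opposite to the cortex, with a difference of -0.19 (SE 0.06, adjusted p = 1). Rpl7l1 differed by -0.21 and Rps6 by -0.09 (adjusted p = 1 for both). Non-overlapping groups were found for 8 members on the lower side and 3 on the higher side, where 4.59% and 2.35% of all genes had them.

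At 8 weeks in the hypothalamus, 38 of 47 members lay above 0, where 45.2% of all genes did, with a median of 0.05 against -0.01 for all genes. No member was called (background 0%), and 4 had an unadjusted p under 0.05, where 7.4% of all genes did. These were Rps27l (0.20, adjusted p = 0.511), Rpl39 (0.17, adjusted p = 0.612), Rpl22 (0.15, adjusted p = 0.627) and Rplp0 (0.14, adjusted p = 0.637). Rps27l had levels of 10.41, 10.45 and 10.39 in cKO mice and 10.35, 10.18 and 10.11 in controls, without overlap. Between 4 and 8 weeks in cKO mice, 42 of 47 lay above 0 (all genes 52.6%) with a median of 0.05 (all genes 0.01), which was 0.0068 with centred arrays. There 21 had non-overlapping groups with the later time higher (7.13% of all genes), 4 had an unadjusted p under 0.05 (8.67% of all genes), and none was called (background 0%). No member was called between the times in control hypothalamus or in either group of the hippocampus, nor was a change of the cKO effect with time called for any member in either tissue (background 0% each). The microglia list stood beside this: all 22 of its genes lay above 0 at 8 weeks, with medians of 1.72, 1.28 and -0.16 in cKO mice and -0.15, -0.48 and -0.23 in controls, and the median of the ribosomal protein genes was 0.04 without cKO replicate 1, 0.04 without cKO replicate 2 and 0.03 without control replicate 3, the lowest value with 1 array left out. Actin's signal at the 3′ end over that at the 5′ end, which grows as RNA degrades, had a difference of -0.25 on the log2 scale, each cKO animal below each control (exact permutation p = 0.1, the smallest that 3 against 3 allow). The part of either in the members' values was not tested.

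On the arrays labelled hippocampus no member was called at either time (background 0%). At 4 weeks 13 of 47 lay above 0 (all genes 56.8%), with a median of -0.01, and 0 had an unadjusted p under 0.05 (4.62% of all genes). In cKO replicate 1, 4 of 47 members lay above their tissue mean (array median -0.08), and in the other cKO animals 35 and 40. At 8 weeks 5 of 47 lay above 0, where 43.8% of all genes did, with a median of -0.05 against -0.02 for all genes (-0.07 without cKO replicate 1, -0.08 without control replicate 2 and -0.03 without control replicate 3), and no member had an unadjusted p under 0.05 (5.95% of all genes); the methods' t-test passed 2 there. The array medians were 0.02, -0.04 and -0.05 in cKO mice and 0.05, -0.03 and 0.06 in controls, which overlap. Rpl14 had levels of 6.70, 6.67 and 6.46 in cKO mice and 6.75, 6.75 and 6.74 in controls, a difference of -0.14 (SE 0.10, adjusted p = 0.81). Mitochondrial ribosomal protein genes lay on the same side in this comparison, 70 of 76 below 0 with a median of -0.09.

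Whether the cKO effect differed between tissues was tested in 1 fit of all 36 arrays, in which a gene is represented by the same probe set throughout and arrays of the same animal are allowed to correlate. It shares its arrays with the fits of single tissues. At 4 weeks the effect in cortex differed from that in hypothalamus for 8 of 47 members (17%), where 21.4% of all genes differed. The effect was more positive in cortex for 7 genes, with Rpl14 at 0.63 (SE 0.12, adjusted p = 0.0162), Rps6 at 0.45 (SE 0.10, adjusted p = 0.0241) and Rpl7l1 at 0.43 (SE 0.12, adjusted p = 0.0384). It was more negative for Rpl27a at -0.72 (SE 0.21, adjusted p = 0.0472). Against the hippocampus the effect in cortex differed for 2 members (4.26%, all genes 2.45%), again Rpl14 (0.47, adjusted p = 0.135) and Rps6 (0.44, adjusted p = 0.0979). The median of the members' tissue differences between cortex and hypothalamus was 0.05, against 0.14 for all genes. No member was called between hypothalamus and hippocampus at 4 weeks or in any of the 3 tissue comparisons at 8 weeks, where between 0% and 0.0999% of all genes were.

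**Figure D5:**
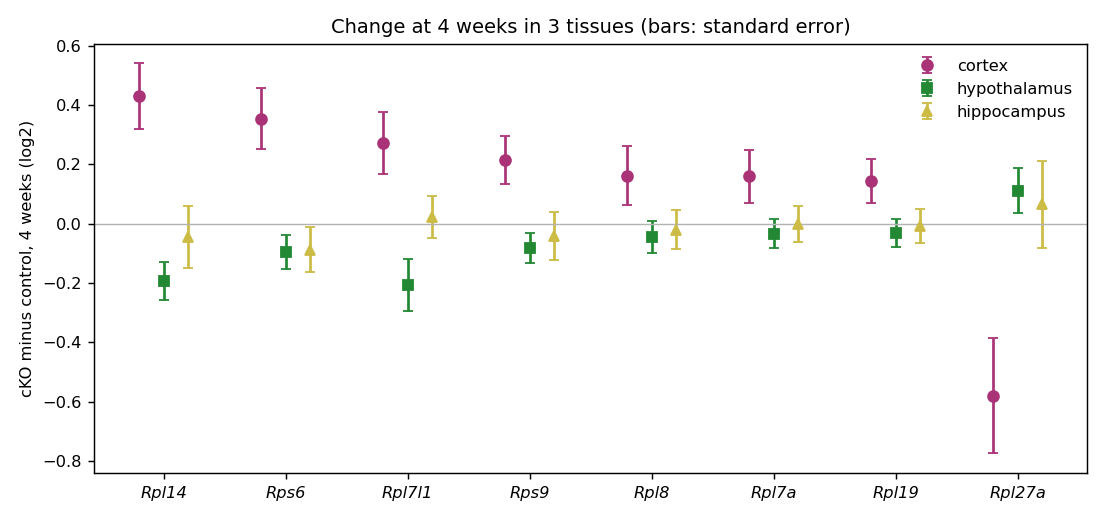
Difference between cKO and control means with its standard error (y axis, log2) in each tissue at 4 weeks, for the 8 members whose effect differed between cortex and hypothalamus (x axis), from the fit of each tissue, where Rpl7l1 has another probe set in cortex. Rpl14 lies at 0.43 in cortex, -0.19 in hypothalamus and -0.04 in hippocampus, and Rpl27a at -0.58, 0.11 and 0.07.

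Paralog pairs and relatives can be read side by side within each tissue. Rpl22l1 and Rpl22 differed between cKO and control cortex by -0.39 and 0.06 at 4 weeks and by -0.38 and 0.03 at 8 weeks, none of them called. In hypothalamus the pair lay at -0.03 and 0.01 at 4 weeks and at 0.04 and 0.15 at 8 weeks. Rps27l and Rps27 differed by -0.12 and 0.21 (adjusted p = 0.231 for Rps27) in the cortex at 4 weeks. Rps4l, a relative of the X-linked Rps4x that is annotated as a transcribed pseudogene, differed by -0.03 and Rps4x by 0.07, and Rpl7l1 and Rpl7 by 0.27 and 0.02. The difference between the members of a pair was not tested, as their probe sets have different affinities.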

How the data were processed

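Total RNA was hybridised to Affymetrix mouse expression arrays. The deposited values are log2 intensities which, per the labels and methods, the authors obtained with RMA (version not given in the sources used here) for each tissue; they were used unchanged. Of 45101 probe sets, the platform annotation gives 1 gene for 34958, several for 932 and none for 9160, beside 64 controls. Columns were matched to samples by title.

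Members and gene lists were chosen with earlier results of these data known, and no list was tested as a set. Detection calls, which the study's methods use as a filter, were not used here. Instead, genes were ranked by the third-highest of a tissue's 12 values and kept up to a number taken from those methods. The methods give it as a count of probe sets, and here it served as a count of genes. A joined name of several genes counted as 1 gene. For each tissue, limma 3.58.1 in R 4.3.3 fitted 4 group means on 12 arrays, two-sided p-values had Benjamini-Hochberg adjustment over all genes tested, and a gene was called at a false discovery rate of 15%, the study's threshold. Tissue differences came from 14020 genes on 36 arrays, with arrays of 1 animal as a block (duplicateCorrelation, statmod 1.5.0, correlation 0.165). Named genes were those called, those of the lowest p in each comparison, a set of always-named members, and up to 3 per list; others were chosen after their values were seen. The pipeline was tested on simulated data. Within a group, each array stands for a separate mouse. The number of arrays limits the precision. In the fits of single tissues the alternatives were other probe set choices, filters, scalings, variance models, array weights, thresholds and the methods' t-test. They also included a replicate block and the omission of each array, and in cortex of the 3 most distant arrays. In the fit of all tissues they were the fit without the animal block and the same omissions of arrays. Like-numbered arrays deviated together (all 3 correlations over 0.1) in the hypothalamus at 8 weeks only (0.200, 0.261 and 0.292).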

Additional observations from a re-analysis of the deposited data

Results flagged for a closer look

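The change between cKO and control differed between tissues at 4 weeks for 10 results, by a test of the difference itself in the fit of all arrays (limma, Benjamini-Hochberg over all genes tested). Between cortex and hypothalamus the difference of the log2 changes was 0.63 for Rpl14 (adjusted p = 0.0162), 0.45 for Rps6 (adjusted p = 0.0241), 0.43 for Rpl7l1 (adjusted p = 0.0384), 0.30 for Rps9 (adjusted p = 0.0463) and -0.72 for Rpl27a (adjusted p = 0.0472). For the large-subunit genes it was 0.18 for Rpl19 (adjusted p = 0.0895), 0.20 for Rpl7a (adjusted p = 0.111) and 0.22 for Rpl8 (adjusted p = 0.125). Between cortex and hippocampus it was 0.47 for Rpl14 (adjusted p = 0.135) and 0.44 for Rps6 (adjusted p = 0.0979). All 10 rest on the cortex at 4 weeks, where control replicate 3 stands apart from its group. Rpl14, Rps6 and Rpl7l1 were called between cortex and hypothalamus under all 38 alternatives tried, Rps9 in 37, Rpl27a in 36, Rpl19 in 31, Rpl7a in 29 and Rpl8 in 26. Between cortex and hippocampus, Rpl14 was called in 25 of 38 and Rps6 in 32. The 38 alternatives of this fit were leaving out the animal block, each of the 36 arrays, and the 3 most distant cortex arrays together. Many of the arrays left out belong to groups outside these comparisons. Scaling, probe set choice and filter were not varied in this fit, so its dependence on them was not tested.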

How the results depend on the processing

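No called value changed sign under any alternative run, but counts of called members turned on the cortex arrays, as did those of all genes, whose share called in the same setting stands in brackets. The cause of these shifts was not tested. In the cortex at 4 weeks the 3 called members of 47 (9.08%) became 1 with each gene's most variable probe set (5.23%) or at a false discovery rate of 10% (2.54%). They became 21 with array weights (59%) and 19 without the 3 most distant arrays (56.4%). The count was 0 with centred arrays (0.51%), quantile normalisation (0.7%), the replicate block (2.2%), a rate of 5% (0.156%), only the 6 arrays compared (0%) or the ordinary t-test (0.0068%). That t-test passed 8 members at an unadjusted p under 0.05, for which the share of all genes was not computed. Leaving out 1 array gave 0 to 18 (44.1% for the 18, without control replicate 3). For 8 against 4 weeks in cKO cortex, the 1 called member (1.2%) became 16 with array weights (44.4%), 17 without the 3 arrays (49.2%), and 0 with the highest variance, centred arrays, quantile normalisation, the replicate block, a rate of 5% or 10%, the 6 arrays or the t-test (0.0272% or less); leaving out 1 array gave 0 to 9, the 9 without control 4 weeks replicate 3 (23.6%) and 5 without cKO 8 weeks replicate 2 (20.2%). The change of the cKO effect with time in cortex had 9 calls with array weights (39.8%), 10 without the 3 arrays (42.2%) and 0 to 1 without 1 array (4.04%, cKO 4 weeks replicate 3). Array weights gave 1 call between times in control cortex (0.421%), 2 in hypothalamus at 8 weeks (4.7%) and 1 between times in cKO hypothalamus (2.9%), where leaving out 1 array gave 0 to 1 (4.2%, cKO 8 weeks replicate 3). Between cortex and hypothalamus at 4 weeks the 8 calls (21.4%) became 5 without the animal block (11.6%), 20 without the 3 arrays (50.8%) and 3 to 22 without 1 array (4.76% without cortex control replicate 1, 44% without cortex control replicate 3). Between cortex and hippocampus the 2 (2.45%) became 18 without the 3 arrays (38.6%) and 0 to 19 without 1 array (30.5% for the 19, without cortex control replicate 3), and between hypothalamus and hippocampus at 8 weeks 0 to 1 (2.32%). The 3 arrays were chosen with earlier results of these data known, and leaving them out between tissues was added after seeing the data.

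Rpl14 in the cortex at 4 weeks was called in 17 of 27 alternatives (0.28 to 0.56), Rps6 in 13 of 28 (0.05 to 0.40) and Rpl27a in 11 of 28 (-0.88 to -0.40). The replicate block changed no other call, and like-numbered cortex arrays did not deviate together, so it pairs them by number only.

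Medians of the members, some of them changing sign near 0, moved as follows. In cortex, the 4-week difference went from 0.06 to -0.0768 with centred arrays (0.0310 to 0.0761 without 1 array), the 8-week one from 0.01 to -0.0222 with array weights and -0.0185 without the 3 arrays (-0.0185 to 0.0310 without 1 array), time in control mice from 0.03 to 0.0715 with the highest variance or the mean of probe sets and to 0.0022 with quantile normalisation, and time in cKO mice from -0.04 to -0.0021, -0.0045 and, with centred arrays, 0.0747. The change of the effect with time went from -0.05 to 0.0869 with centred arrays and to -0.0013 with quantile normalisation. In hypothalamus, 4 weeks went from -0.03 to 0.0029 with centred arrays and -0.0101 with quantile normalisation (-0.0327 to -0.0070 without 1 array), 8 weeks from 0.05 to 0.0630 with array weights (0.0276 to 0.0603), time in cKO mice from 0.05 to 0.0068 with centred arrays, and the change with time from 0.07 to 0.0431 with the mean of probe sets, 0.0257 with centred arrays and 0.0363 with quantile normalisation (0.0389 to 0.0715). Time in control hypothalamus lay between -0.0218 and 0.0069 without 1 array, and the change with time in hippocampus between -0.0815 and -0.0154. Between tissues, cortex minus hypothalamus at 8 weeks went from -0.02 to -0.0582 without the 3 arrays (-0.0582 to -0.0113 without 1 array), cortex minus hippocampus lay at 0.0200 to 0.0785 at 4 and 0.0206 to 0.0809 at 8 weeks, and hypothalamus minus hippocampus at 4 weeks at -0.0441 to 0.0211.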
